A study of Mus musculus with 4 samples.

Results

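The genes described here are the 5 that encode the receptor system with which the proximal tubule takes filtered protein out of the urine, Lrp2, Cubn, Amn, Dab2 and Fcgrt, chosen by name for that role from the 32285 genes counted. All 5 were found in the files and all 5 passed the filter on low counts. They were measured in 4 Visium sections of left kidneys of male WT C57BL/6J mice aged 7-8 weeks, 2 from normal controls and 2 from mice whose renal pedicles were both clamped for 30 min and whose kidneys were taken at 24 h. Visium counts RNA molecules (UMIs) in spots of tissue, and a spot is a small region that can hold several cells of different types. Both groups were wild type, and the controls are labelled normal, with no sham operation named. The methods name 2 mice in each condition and repeat sections of each mouse, but neither they nor the labels tell which mouse a section came from, so the 2 sections of a group may come from different mice or the same one. For whole sections the p-values measure only the spread between sections, which may be technical. Tests by kidney zone use several sums per section, which share its tissue and library. Those that keep the section as a block leave the spread between sections out.

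The early proximal tubule reabsorbs albumin, vitamin carriers and hormones that pass the glomerular filter. Megalin, encoded by Lrp2, is a very large receptor of the LDL receptor family on the apical membrane. Cubilin, encoded by Cubn, has no membrane span of its own and reaches the apical surface only with amnionless, encoded by Amn. Dab2 is a clathrin adaptor that binds the cytoplasmic tail of megalin, and Fcgrt encodes the heavy chain of the neonatal Fc receptor, which pairs with B2m and returns albumin and IgG from endosomes. Dab2 and Fcgrt are also known from other cells, such as macrophages and endothelium, while Lrp2, Cubn and Amn mark the proximal tubule within the kidney.

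On GRCm38 the genes lie apart from each other. Lrp2 (ENSMUSG00000027070) spans bases 69424340 to 69586065 of chromosome 2 on the minus strand and Cubn (ENSMUSG00000026726) bases 13276338 to 13491813 of the same chromosome and strand. Amn (ENSMUSG00000021278) spans 111271095 to 111276426 of chromosome 12 on the plus strand. Dab2 (ENSMUSG00000022150) spans 6299788 to 6440712 of chromosome 15 on the plus strand, and Fcgrt (ENSMUSG00000003420) 45092990 to 45103851 of chromosome 7 on the minus strand. Cubn, Dab2 and Fcgrt each overlap a gene model on the other strand, of which Gm13270 at Cubn had 16 counts over the 4 sections and Gm16311 at Dab2 and Gm45669 at Fcgrt had 0.

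The promoters of Lrp2, Cubn and Amn are shown because these were the members with the largest decreases. Each is the 250 bases before a RefSeq start on GRCm38.p6, 5′ to 3′, with matches to 6 searched motifs in capitals.
Lrp2 promoter, chr2:69586030-69586279, strand -: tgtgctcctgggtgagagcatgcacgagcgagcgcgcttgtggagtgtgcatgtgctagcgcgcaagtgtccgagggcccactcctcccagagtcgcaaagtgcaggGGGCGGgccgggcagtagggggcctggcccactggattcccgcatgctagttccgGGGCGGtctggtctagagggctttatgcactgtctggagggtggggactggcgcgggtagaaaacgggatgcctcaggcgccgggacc
Cubn promoter, chr2:13491877-13492126, strand -: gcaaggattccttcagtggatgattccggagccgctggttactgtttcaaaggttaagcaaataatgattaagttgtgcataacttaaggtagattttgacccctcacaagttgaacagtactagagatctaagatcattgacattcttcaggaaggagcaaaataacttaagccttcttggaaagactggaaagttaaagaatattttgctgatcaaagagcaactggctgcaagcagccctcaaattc
Amn promoter, chr12:111270846-111271095, strand +: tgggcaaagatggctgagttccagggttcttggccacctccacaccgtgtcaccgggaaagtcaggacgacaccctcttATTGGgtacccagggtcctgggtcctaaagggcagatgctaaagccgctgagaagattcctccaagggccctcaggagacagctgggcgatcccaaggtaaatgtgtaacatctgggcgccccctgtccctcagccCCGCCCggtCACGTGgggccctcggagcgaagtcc
Both strands were searched. The motif of the tubule factor HNF1 was taken as GTTAAT, and that of HNF4 as CAAAGTCCA. The TATA box was taken as TATAAA. The remaining motifs were the CCAAT box, the GC box as GGGCGG and the E-box as CACGTG, and none of these letters overlapped another match. The Lrp2 window held the GC box at -143 and at -88 from the start, and the Amn window held CCAAT on the opposite strand at -171, the GC box on the opposite strand at -35 and the E-box at -26. The Cubn window held no match, and neither did that of Fcgrt. Of the Dab2 starts listed, one had no match and the other had GTTAAT at -65. No searched motif was present in all 3 windows shown. Among all 32851 promoters of this length, 32.7% held the GC box, 33.8% CCAAT, 12.4% the TATA box, 6.43% the HNF1 motif, 6.02% the E-box and 0.384% the HNF4 motif.

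The sections held 10312 tissue spots and between 25957128 and 44528078 UMIs each, with normal section 1 the deepest. The labels were checked first with injury genes. Havcr1, which encodes the injury marker Kim-1, had 1.17 and 2.14 CPM (counts per 1000000 UMIs, TMM-scaled) in the normal and 1288 and 1280 CPM in the ischemic sections, and Lcn2 had 5.94 and 7.97 against 2794 and 3284 CPM. Zones of the kidney were assigned to spots from marker genes, and cortex took 36.5% to 45.0% of spots, outer stripe 25.9% to 30.7% and inner stripe 12.8% to 20.9%. All 5 injured tubule and all 5 neutrophil markers were higher in ischemic sections, and all 4 thick limb markers were lower. Of all genes, 31.0% were higher and 29.7% lower. Several zone markers themselves fell with ischemia, all 6 of the cortex list and all 5 of the outer stripe list. So did all 4 of the inner stripe list and 5 of 6 of the pelvis list. Of 5 inner medulla markers, 2 rose, Cryab and Slc14a2, and 1 fell. Zone borders in ischemic tissue therefore rest on scores standardised within a section. The inner medulla list summed to 10029 and 8718 CPM in the normal inner medulla. In ischemic sections it summed to 3395 and 3508 CPM there and to 6612 and 6533 CPM in the outer stripe. With the cortex list replaced by podocyte and distal tubule genes, 90.3% to 92.7% of cortex spots kept their zone, and no call of a member between conditions in the cortex or outer stripe changed.

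In whole sections, Lrp2, Cubn, Amn and Fcgrt were lower after ischemia and Dab2 did not pass the test. The count is 4 of 5 lower and 0 of 5 higher, beside 29.7% of all 15305 genes tested that were lower, 31.0% that were higher and 60.6% called in either direction. The median log2 difference of the members was -1.57, and that of all genes was 0.04. Fewer proximal tubule cells and less RNA per cell cannot be told apart in these data.

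Lrp2 had 664 and 529 CPM in normal sections 1 and 2 and 126 and 116 CPM in ischemic sections 1 and 2. Both ischemic sections were far below both normal sections. The means were 597 ± 95.2 and 121 ± 6.89 CPM (SD, n = 2), a log2 difference of -2.31 (SE 0.16, adjusted p = 3.16e-06 edgeR's quasi-likelihood F-test, Benjamini-Hochberg adjusted over all genes), or 4.94-fold lower.

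Cubn, the partner receptor that binds albumin and intrinsic factor with vitamin B12, was lower in both ischemic sections as well. It had 223 and 166 CPM in the normal and 42.0 and 42.9 CPM in the ischemic sections, which again did not overlap. The log2 difference was -2.20 (SE 0.15, edgeR adjusted p = 3.78e-06), 4.58-fold lower. Amn, which carries cubilin to the surface, had 94.1 and 85.8 against 30.0 and 30.5 CPM. Its groups stood apart with little spread inside each, and the log2 difference was -1.57 (SE 0.10, edgeR adjusted p = 2.38e-06), 2.97-fold lower.

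Fcgrt had 165 and 127 CPM in the normal and 84.6 and 87.0 CPM in the ischemic sections. The groups did not overlap, but normal section 2 lay nearer to the ischemic sections than normal section 1 did. The log2 difference was -0.77 (SE 0.14, edgeR adjusted p = 0.00128), 1.70-fold lower. B2m, the light chain that Fcgrt needs, had 270 and 332 against 230 and 228 CPM, a log2 difference of -0.39 (SE 0.14, edgeR adjusted p = 0.0338), and this call was lost with total-count scaling (-0.14).

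Dab2 was the exception. It had 155 and 127 CPM in the normal and 138 and 125 CPM in the ischemic sections, so the groups overlapped. The log2 difference was -0.10 (SE 0.13, edgeR adjusted p = 0.528), with a 95% interval from -0.40 to 0.20, and its sign turned to 0.18 with total-count scaling. The normal sections decided this value, which was -0.26 (adjusted p = 0.00190) without normal section 2 and 0.057 without normal section 1.

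**Figure D1:**
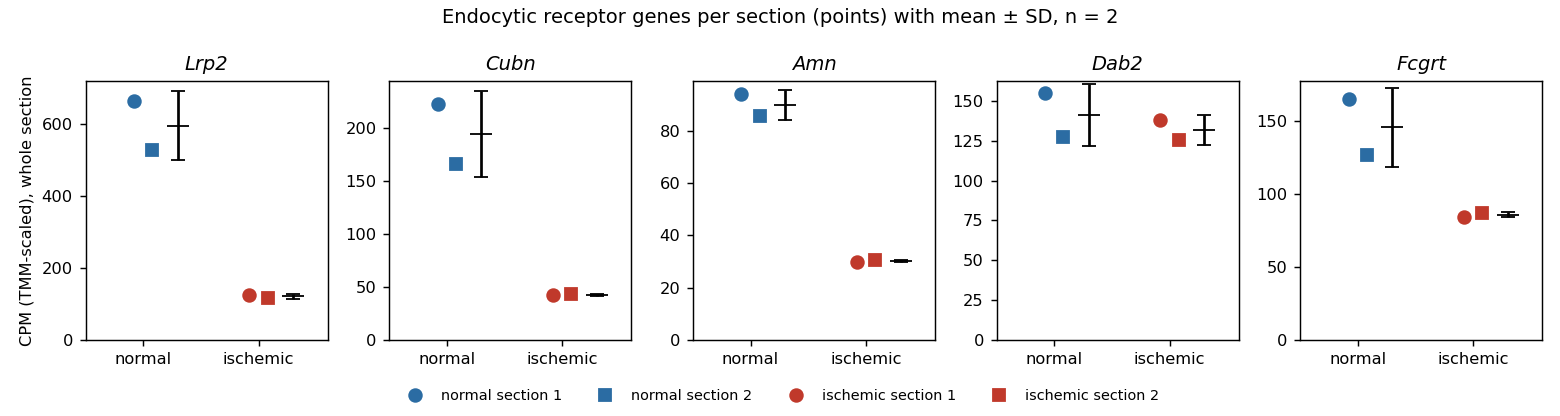
CPM of each gene (TMM-scaled, linear axis from 0) in the 4 whole sections, with points for sections and bars for the mean ± SD of 2 sections. Lrp2, Cubn, Amn and Fcgrt are lower in both ischemic sections than in both normal sections, while the Dab2 values of 125 to 155 CPM overlap.

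The share of spots with at least 1 count was also taken at equal depth. Lrp2 was counted in 91.1% of the 2616 spots that normal section 1 held (89.9% to 92.1%, exact 95% Clopper-Pearson bounds), 79.2% in normal section 2, 54.3% in ischemic section 1 and 46.5% (44.6% to 48.4%) in ischemic section 2. Spots with at least 2000 UMIs were then thinned to that number, which kept 2568 of 2616 and 2532 of 2682 spots in the normal and 2343 of 2401 and 2508 of 2613 in the ischemic sections and left out the shallower ones. Over the thinned spots, the shares for Lrp2 were 59.2%, 53.6%, 19.9% and 17.5%. The thinned shares for Cubn were 26.7% and 24.6% (normal) against 6.87% and 7.97% (ischemic). For Dab2 the thinned shares were 21.2% and 21.2% against 22.6% and 21.6%, a spread of under 2 percentage points over the 4 sections. Intervals cover counting error only.

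In the cortex, where the convoluted proximal tubules lie, Lrp2, Cubn and Amn were lower after ischemia and Fcgrt and Dab2 did not pass the test. That is 3 of 5 lower, beside 19.9% of 14174 genes that were lower in this zone and 40.1% called in either direction. Lrp2 had 913 and 773 CPM in the normal and 250 and 241 CPM in the ischemic cortex, and the groups lay well apart. Its log2 difference was -1.78 (SE 0.31, edgeR adjusted p = 0.000132). Cubn had 237 and 199 against 77.0 and 82.6 CPM, with no overlap and a log2 difference of -1.45 (SE 0.37, edgeR adjusted p = 0.00393). Amn had 112 and 116 against 55.7 and 58.2 CPM, so both ischemic sections were near 1 level and both normal sections near another, with a log2 difference of -1.0 (SE 0.19, edgeR adjusted p = 0.000276). The calls of Cubn and Amn rested on both ischemic sections: without ischemic section 1 the adjusted p was 0.127 for Cubn and 0.0517 for Amn, and without ischemic section 2 it was 0.105 for Cubn.

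Neither Fcgrt nor Dab2 passed the test in the cortex. Fcgrt had 190 and 163 CPM in the normal and 147 and 159 CPM in the ischemic cortex, a log2 difference of -0.21 (SE 0.20, edgeR adjusted p = 0.430). The values did not overlap, but ischemic section 2 and normal section 2 were only a few CPM apart. The difference became -0.31 (adjusted p = 0.00589) without normal section 2, and 0.017 with total-count scaling. Dab2 had 249 and 216 against 277 and 267 CPM, with both ischemic sections above both normal sections. Its log2 difference was 0.23 (SE 0.16, edgeR adjusted p = 0.291), which was 0.25 (adjusted p = 0.0257) without normal section 1 and 0.45 (adjusted p = 0.00613) with total-count scaling.

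In the outer stripe of the outer medulla, where the straight proximal tubules lie, 4 of 5 members were lower, beside 29.5% of genes lower and 56.9% called in either direction. Lrp2 had 756 and 703 CPM in the normal and 118 and 130 CPM in the ischemic sections, a log2 difference of -2.56 (SE 0.32, edgeR adjusted p = 1.37e-06), or 5.89-fold lower. Cubn had 325 and 269 against 44.9 and 53.6 CPM, a difference of -2.59 (SE 0.39, edgeR adjusted p = 1.19e-05). In both receptors each normal section was several-fold above each ischemic section.

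Amn had 122 and 114 against 30.1 and 36.8 CPM in the outer stripe, a log2 difference of -1.82 (SE 0.20, edgeR adjusted p = 2.16e-07). Fcgrt, whose cortical difference did not pass, had 203 and 153 against 69.9 and 80.4 CPM here. The groups did not overlap, and the log2 difference was -1.25 (SE 0.20, edgeR adjusted p = 2.96e-05), 2.37-fold lower. Dab2 had 131 and 120 against 108 and 107 CPM, a narrow gap with the ischemic sections below. Its log2 difference of -0.22 (SE 0.17, edgeR adjusted p = 0.262) was -0.28 (adjusted p = 0.0162) without normal section 1, -0.29 (adjusted p = 0.00880) without normal section 2 and 0.18 with total-count scaling.

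In the inner stripe, the zone of thick ascending limbs, all 5 members were lower, beside 25.9% of genes lower and 48.2% called in either direction. Lrp2 had 441 and 199 CPM in the normal and 14.0 and 15.2 CPM in the ischemic sections, a log2 difference of -4.46 (SE 0.37, edgeR adjusted p = 1.33e-08). Cubn had 205 and 79.9 against 11.0 and 7.04 CPM, and Amn 73.4 and 44.6 against 6.72 and 6.66 CPM. The log2 difference of Cubn was -3.99 (SE 0.46) and that of Amn -3.16 (SE 0.26). For all 3 genes the normal sections differed strongly from each other, with section 1 higher, while the ischemic sections were low in both. Without normal section 1 the difference was -3.74 for Lrp2 and -3.11 for Cubn, and with zones scored spot by spot without neighbours it was -3.21 for Lrp2, -3.06 for Cubn and -2.37 for Amn. The log2 difference of Fcgrt was -1.57 (SE 0.21) and that of Dab2 was -0.86 (SE 0.18), with edgeR adjusted p of 5.55e-06 and 0.000714, and the Dab2 call was lost without ischemic section 1 (-0.77, adjusted p = 0.0736) and with zones scored without neighbours (-0.50, adjusted p = 0.0767). Spots of this zone sum RNA from their whole area, so a level here need not come from thick limb cells.

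The inner medulla and pelvis are not known as sites of proximal tubule, and among zones of the normal kidney the pelvis had the lowest mean of Lrp2, Cubn and Amn. In the inner medulla, Lrp2 had 297 and 158 against 17.3 and 11.3 CPM, and Cubn 128 and 52.9 against 5.66 and 2.82 CPM. The log2 differences were -3.97 (SE 0.39) and -4.34 (SE 0.60), and over the alternatives they came down to -3.21 and -3.19. The zone was mixed in both conditions. Its summed proximal tubule markers had 2738 and 1966 CPM in normal against 405 and 522 CPM in ischemic sections. Inner stripe markers summed to 2969 and 4629 CPM in the normal zone, below its inner medulla markers at 10029 and 8718 CPM. In the ischemic zone they summed to 4526 and 4333 CPM, above its inner medulla markers at 3395 and 3508 CPM. The inner medulla zone took 5.12% and 8.35% of spots in normal and 12.2% and 11.5% in ischemic sections. How far this mix entered the differences in the inner medulla was not tested. All 5 members were lower there, beside 21.2% of genes lower and 35.1% called, with Dab2 the smallest at -0.66 (SE 0.21, edgeR adjusted p = 0.0190). The Dab2 call was lost without normal section 1 (-0.33), ischemic section 1 (-0.72) or ischemic section 2 (-0.59), and also without spots near a zone boundary (adjusted p = 0.203), with the cortex list of podocyte and distal tubule genes (0.0585) and with each zone fitted alone (0.0718). The Fcgrt call was lost without ischemic section 1 (-1.11, adjusted p = 0.0527). In the pelvis, 4 of 5 were lower, beside 14.6% of genes lower and 25.2% called, and Dab2 had 53.5 and 36.6 against 56.2 and 56.2 CPM, a log2 difference of 0.33 (SE 0.22, edgeR adjusted p = 0.295) that was called at 0.67 (adjusted p = 0.0129) without normal section 1. Leaving out either ischemic section ended the pelvis calls of Lrp2 (-1.92 without section 1, -1.48 without section 2), Cubn (-1.73 and -3.18) and Fcgrt (-0.66 and -0.86), and the Fcgrt call was also lost with zones scored without neighbours (adjusted p = 0.0577). Over all alternatives the pelvis difference ran from -2.77 to -1.16 for Lrp2 and from -3.18 to -1.46 for Cubn. The pelvis zone itself was unlike between conditions, with summed pelvis markers of 4995 and 5426 CPM in normal against 658 and 920 CPM in ischemic sections. Scored without neighbours, 66.4% and 63.0% of normal pelvis spots kept their zone, against 28.3% and 28.5% of ischemic ones. How far the makeup of the zone entered the pelvis differences was not tested.

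**Figure D2:**
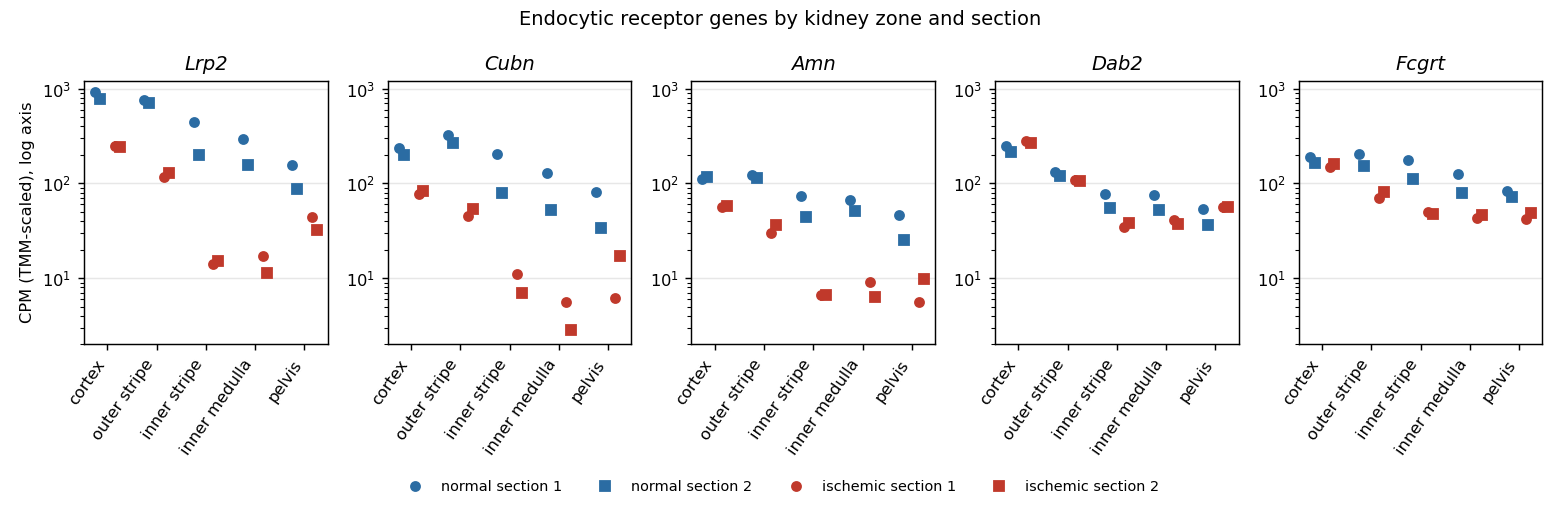
CPM of each gene by zone (TMM-scaled, log axis), with 1 point per section, normal in blue and ischemic in red. Ischemic Lrp2 drops to 14.0 and 15.2 CPM in the inner stripe, while Dab2 in cortex is 216 to 249 CPM in normal and 267 to 277 CPM in ischemic sections.

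The order of the zones differed between genes and conditions. In normal sections Lrp2 was ordered from cortex to outer stripe to inner stripe, whose values overlapped those of the inner medulla, to pelvis. Normal Cubn stood higher in the outer stripe than in the cortex in both sections, and its cortex, inner stripe, inner medulla and pelvis values each overlapped the next. Normal Amn and Fcgrt overlapped between outer stripe and cortex. In ischemic sections the cortex was the highest zone for all 5 genes, with the outer stripe next and no overlap between these zones.

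**Figure D3:**
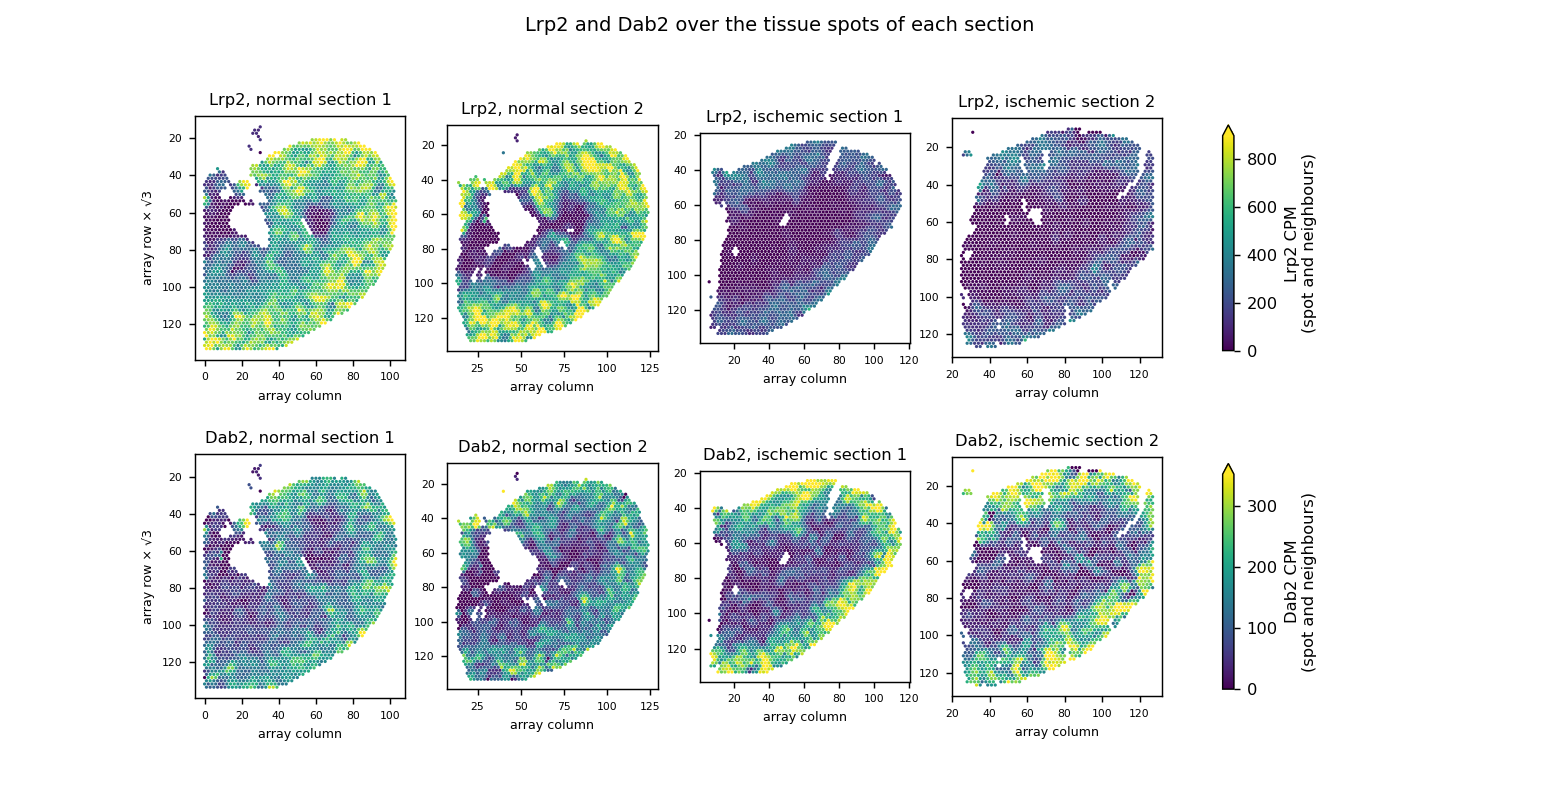
CPM without TMM scaling of Lrp2 (upper row) and Dab2 (lower row) in each spot pooled with its neighbours. Spots are drawn at their array position, with 1 colour scale per gene over all 4 sections. Lrp2 is high in a broad outer band of normal sections and low through the ischemic sections, while Dab2 keeps a high rim in the cortex. The TMM-scaled Dab2 levels of the ischemic cortex, 277 and 267 CPM, are not on the scale of the map.

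The inner stripe was lower than the cortex for all 5 genes in both conditions, beside 15.0% of genes lower and 29.2% called in normal and 26.5% lower and 49.5% called in ischemic kidneys. The normal log2 differences of inner stripe from cortex ran from -1.82 (SE 0.10) for Dab2 to -0.31 (SE 0.10) for Fcgrt, with Lrp2 at -1.48 (SE 0.18), Amn at -0.94 (SE 0.15) and Cubn at -0.69 (SE 0.21), and the ischemic ones from -4.07 (SE 0.23) for Lrp2 to -1.65 (SE 0.11) for Fcgrt. In ischemic kidneys Lrp2 was thus 16.8-fold lower in the inner stripe than in the cortex, against 2.78-fold in normal kidneys. Over the alternatives the ischemic log2 difference ran from -4.42 to -2.71, the smallest with zones scored without neighbours. Outer stripe markers summed to 3132 and 1220 CPM in the normal inner stripe against 197 and 188 CPM in the ischemic one. The zone took 14.1% and 12.8% of spots in normal and 17.9% and 20.9% in ischemic sections. How far its makeup entered these differences was not tested. The normal calls of Cubn (-0.21, adjusted p = 0.117) and Fcgrt (-0.11, adjusted p = 0.407) were lost without normal section 2, and both were also lost without either ischemic section (Cubn -0.73 and -0.74, Fcgrt -0.32 and -0.32 without sections 1 and 2). They were lost as well with total counts (adjusted p of 0.0786 and 0.610 for Cubn and Fcgrt), with a replicate block (0.107 and 0.239) and with no section block (0.286 and 0.356), and that of Cubn with DESeq2 (0.0734). Without normal section 1 the normal Cubn difference was -1.41.

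To ask whether the outer stripe and the cortex differed in their response, zones were compared within sections with the section as a block. In normal kidneys 1 of 5 members, Dab2, passed the test between these zones, with a log2 difference of outer stripe from cortex of -0.89 (SE 0.09, edgeR adjusted p = 4.28e-07), beside 10.3% of genes lower in the outer stripe and 22.8% called. The difference was 0.45 (SE 0.20, adjusted p = 0.113) for Cubn, -0.20 (SE 0.17) for Lrp2, 0.04 (SE 0.13) for Amn and 0.00 (SE 0.10) for Fcgrt. Cubn passed without normal section 1 (0.42, adjusted p = 0.000306) or normal section 2 (0.46, adjusted p = 4.18e-05), with no filter on low counts (0.40, adjusted p = 0.000929) and with zones scored without neighbours (0.47, adjusted p = 0.0127), and Lrp2 without normal section 2 (-0.27, adjusted p = 0.00364). In ischemic kidneys all 5 were lower in the outer stripe, beside 19.3% of genes lower and 36.2% called.

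The ischemic differences of outer stripe from cortex were -1.34 (SE 0.09) for Dab2, -1.03 (SE 0.10) for Fcgrt, -0.99 (SE 0.18) for Lrp2, -0.78 (SE 0.15) for Amn and -0.70 (SE 0.22) for Cubn, with edgeR adjusted p from 1.89e-09 to 0.0162. The Cubn call was lost without either ischemic section (-0.62 and -0.78), and those of Lrp2 (-0.89) and Amn (-0.66) without ischemic section 1. The Cubn call was also lost with DESeq2 (adjusted p = 0.149), with a replicate block (0.0866), with no section block (0.187) and with the cortex list of podocyte and distal tubule genes (0.0555). The log2 ratio of outer stripe to cortex for Fcgrt was 0.09 and -0.09 in normal tissue against -1.08 and -0.98 in ischemic tissue, so it was level in normal kidneys and tilted to the cortex in both ischemic ones.

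The test of the change itself, ischemic minus normal, passed for all 5 genes, beside 13.5% of genes with a change of this sign and 21.5% called. Summed proximal tubule markers moved the same way. They had 8370 and 6970 CPM in normal cortex and 5786 and 5139 CPM in normal outer stripe. In ischemic sections they had 2186 and 2232 CPM in cortex and 805 and 830 CPM in outer stripe. How far the makeup of the zones entered the change was not tested. The change was -1.03 (SE 0.14, edgeR adjusted p = 3.10e-05) for Fcgrt and -1.15 (SE 0.29, adjusted p = 0.00769) for Cubn. For Amn it was -0.82 (SE 0.19, adjusted p = 0.00430), for Lrp2 -0.79 (SE 0.25, adjusted p = 0.0277) and for Dab2 -0.45 (SE 0.13, adjusted p = 0.0176). The Fcgrt call held under every alternative run, with an adjusted p of at most 0.0347. Leaving out either ischemic section ended the other 4 calls, with adjusted p of 0.333 and 0.186 for Lrp2, 0.187 and 0.117 for Cubn, 0.228 and 0.0956 for Amn and 0.321 and 0.269 for Dab2 without sections 1 and 2.

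Markers of the proximal tubule moved with the receptors. Of 12 such genes, 11 were lower in whole sections, 0 were higher and Slc13a1, a sulfate transporter, did not pass. Of all genes, 29.7% were lower and 31.0% higher. Their median log2 difference was -1.86, and their summed level was 5744 and 4556 CPM in normal against 1098 and 1069 CPM in ischemic sections, with no marker at 0. Within that list the differences ran from -3.84 for Miox, the enzyme that breaks down inositol, to 0.04 for Slc13a1, which was called higher with total-count scaling (0.32).

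Set against this list, the members separated. Per 1000 counts of the 12 markers, Lrp2 had 116 and 116 counts (normal) against 114 and 108 counts (ischemic). Cubn had 38.8 and 36.4 against 38.2 and 40.1 counts. In whole sections both receptors therefore had about the same ratio to this summed list in all 4 sections. That ratio depends on which markers are summed, since Miox, at -3.84, fell more than either receptor. The median log2 difference of the list, -1.86, was smaller in size than those of Lrp2 (-2.31) and Cubn (-2.20). Amn had 16.4 and 18.8 against 27.3 and 28.6 counts, higher in both ischemic sections. Fcgrt had 28.8 and 27.8 against 77.0 and 81.4 counts, and Dab2 27.0 and 28.0 against 126 and 117 counts, so these stood several-fold higher relative to the markers in both ischemic sections.

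Zones were taken one by one in the same way. In the cortex, Lrp2 had 109 and 111 against 114 and 108 counts, and Cubn 28.4 and 28.5 against 35.2 and 37.0, higher in both ischemic sections. In the outer stripe, Lrp2 had 131 and 137 counts per 1000 marker counts in normal tissue against 146 and 156 in ischemic tissue, and Cubn 56.2 and 52.4 against 55.8 and 64.6. Dab2 had 22.7 and 23.4 against 135 and 129 there. In the cortex, Dab2 had 29.8 and 31.0 against 127 and 120, and Fcgrt 22.7 and 23.4 against 67.4 and 71.1.

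In the inner stripe and inner medulla, Lrp2 and Cubn were lower relative to the markers in both ischemic sections. In the inner stripe, Lrp2 had 117 and 82.6 counts per 1000 marker counts in normal against 37.6 and 37.2 in ischemic tissue, and Cubn 54.4 and 33.2 against 29.5 and 17.2. In the inner medulla, Lrp2 had 109 and 80.4 against 42.7 and 21.6, and Cubn 46.9 and 26.9 against 14.0 and 5.39. Dab2 in the inner stripe had 20.3 and 23.0 against 93.1 and 93.5, higher in both ischemic sections. In the pelvis the Lrp2 values, 91.6 and 70.1 against 109 and 59.3, overlapped. These ratios are descriptions without a test. In normal sections Miox alone gave 1863 and 1365 of the 5744 and 4556 CPM of the list. In ischemic sections it gave 119 and 107 of 1098 and 1069 CPM, and ratios without Miox were not taken.

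**Figure D4:**
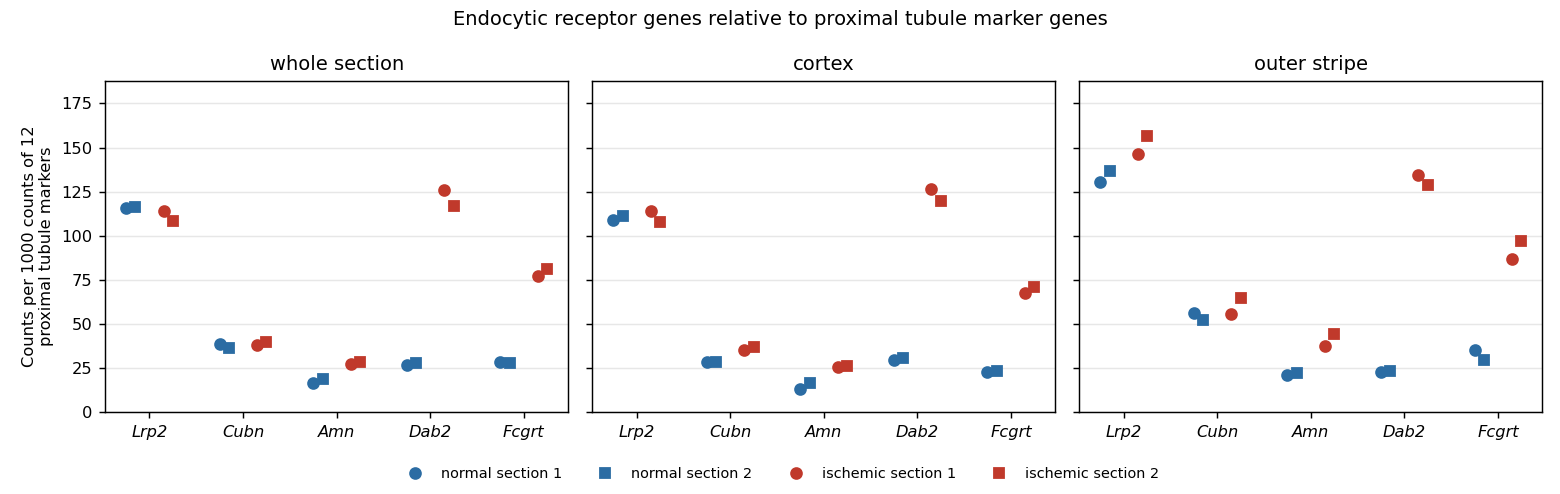
Counts of each gene per 1000 summed counts of 12 proximal tubule markers, in whole sections, cortex and outer stripe, with 1 point per section. Lrp2 stays between 108 and 116 in whole sections while Dab2 is 27.0 and 28.0 in the normal sections against 126 and 117 in the ischemic ones. The whole-section sum includes Miox, which had 1863 and 1365 CPM in normal and 119 and 107 CPM in ischemic sections.

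Direct ratios of counts between members gave a like separation. Cubn per Lrp2 in whole sections was 0.336 and 0.313 in normal tissue against 0.334 and 0.370 in ischemic tissue. In the cortex it was 0.260 and 0.257 against 0.308 and 0.342, higher in both ischemic sections. In the outer stripe its values, 0.430 and 0.383 against 0.381 and 0.413, overlapped. Amn per Cubn in whole sections was 0.422 and 0.518 against 0.714 and 0.713. Dab2 per Lrp2 was 0.233 and 0.241 against 1.10 and 1.08 in whole sections and 0.173 and 0.171 against 0.920 and 0.822 in the outer stripe, higher in both ischemic sections each time. Counts are not corrected for transcript length, and each ratio is read only across sections.

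Dab2 and Fcgrt are also known from macrophages and endothelium, whose markers were therefore set beside them. Of 8 macrophage markers, 1 was higher, 4 were lower and 3 did not pass, beside 31.0% of all genes higher and 29.7% lower. Their summed level was 240 and 286 CPM in normal against 214 and 207 CPM in ischemic sections. Cd68 was the one that rose (log2 difference 2.25), and Csf1r, C1qc and C1qb fell by 1.96, 0.55 and 0.45 on the log2 scale. With total-count scaling 1 was higher and 1 lower. Of 7 endothelial markers, 4 were higher, Kdr was lower and 2 did not pass, beside the same shares of all genes. Their summed level was 337 and 359 against 405 and 446 CPM. With total-count scaling 5 were higher and 0 lower, and the Kdr call was lost. In the cortex, where Dab2 is most abundant, the endothelial sum was 366 and 402 against 360 and 405 CPM and the macrophage sum 159 and 205 against 137 and 131 CPM. No marker of either list was at 0, and the part of these cells in the Dab2 and Fcgrt levels was not tested.

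The other genes of the pathway are given by lists, each read beside the 31.0% of all genes that were higher and the 29.7% that were lower in whole sections. The proteins that serve the receptors did not move as 1 group. Of 6 partners, 1 was higher, 3 were lower and 2 did not pass, with a median log2 difference of -0.22 that turned to 0.045 with total-count scaling. Lrpap1, the chaperone RAP that keeps megalin from binding ligands during its synthesis, had 571 and 418 CPM (normal) against 107 and 102 CPM (ischemic) and the groups lay well apart. Its log2 difference was -2.24 (SE 0.17, edgeR adjusted p = 6.21e-06) in whole sections, -1.54 in cortex and -2.96 in the outer stripe. Myo6, the motor that moves endocytic vesicles from the apical membrane, fell by 0.55 on the log2 scale.

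Among the partners, Clcn5 and Ocrl, which are known from inherited proximal tubule protein loss, gave other values than Lrpap1. Clcn5, the endosomal chloride-proton exchanger of Dent disease, had 45.9 and 39.5 against 41.7 and 41.0 CPM, with a log2 difference of -0.05 (SE 0.10, edgeR adjusted p = 0.706). Clcn5 was named after its values were seen. Ocrl, the phosphatase of Lowe syndrome, rose from 7.89 and 9.20 to 15.0 and 13.7 CPM, a log2 difference of 0.75 (SE 0.12, edgeR adjusted p = 0.000729).

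Most genes of the clathrin coat and the endosome did not pass the test. Of 10 coat genes, 3 were higher, a share near the 31.0% of all genes, 0 were lower and 7 did not pass. Those that rose were Ap2b1 (log2 difference 1.04), Ap2m1 (0.57) and the clathrin heavy chain Cltc (0.47). Of 11 endosome genes, Rab11a of the recycling endosome rose by 0.75, Rab4a and Rab5c fell by 0.83 and 0.43, and 8 did not pass. Median log2 differences were 0.04 for the coat and -0.13 for the endosome, close to the 0.04 of all genes. With total-count scaling, which moved the median of all genes to 0.31 and the share of called genes that were higher from 51.1% to 67.0%, 5 coat genes were higher, and of the endosome genes 4 were higher and 1 was lower.

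Lysosomal genes were split. Of 8, 4 were higher, 3 were lower and 1 did not pass, beside 31.0% and 29.7% of all genes, and with total-count scaling 5 were higher and 2 lower. Ctsd, an aspartic protease, rose from 397 and 360 to 952 and 952 CPM (log2 difference 1.33, SE 0.14), Scarb2 rose by 1.07 and Ctsl by 0.91. Ctsh, an aminopeptidase, fell from 372 and 277 to 127 and 125 CPM (-1.37, SE 0.16), Lamp2 fell by 0.92 and Lamp1 by 0.37. The Lamp1 call was lost with total-count scaling (-0.10).

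The other receptors of the LDL receptor family went both ways. Of 8, 4 were higher, 2 were lower and 2 did not pass, beside 31.0% and 29.7% of all genes, with a median log2 difference of 0.28. Lrp8, the receptor for reelin and selenoprotein P, rose from 1.00 and 0.833 to 8.42 and 9.18 CPM (log2 difference 3.24, SE 0.20), Lrp1 by 1.04 and Lrp5 by 0.84. Lrp4 and Lrp6 fell by 0.80 and 0.46, and neither was called with total-count scaling.

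Genes for the vitamins that megalin and cubilin recover went both ways. Of 8, Cyp27b1 did not pass the filter on low counts, and of the 7 tested 2 were higher and 5 were lower, beside 31.0% and 29.7% of all genes, with a median log2 difference of -0.82. With total-count scaling 4 were lower, and the call of Cd320, a receptor for the vitamin B12 carrier, was lost (-0.21). Folr1, the folate receptor of the same apical membrane, had 430 and 335 against 103 and 91.3 CPM (-1.98, SE 0.16), and Tcn2, the carrier of vitamin B12, 888 and 687 against 236 and 235 CPM (-1.74, SE 0.16). Rbp4, the retinol carrier, fell by 1.07. Cyp24a1, the enzyme that inactivates vitamin D, rose from 16.4 and 19.2 to 111 and 116 CPM (2.67, SE 0.12), and Gc, the vitamin D carrier, by 0.66. Each rise and fall named for these lists had an edgeR adjusted p under 0.05 over all genes and section values that did not overlap.

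**Figure D5:**
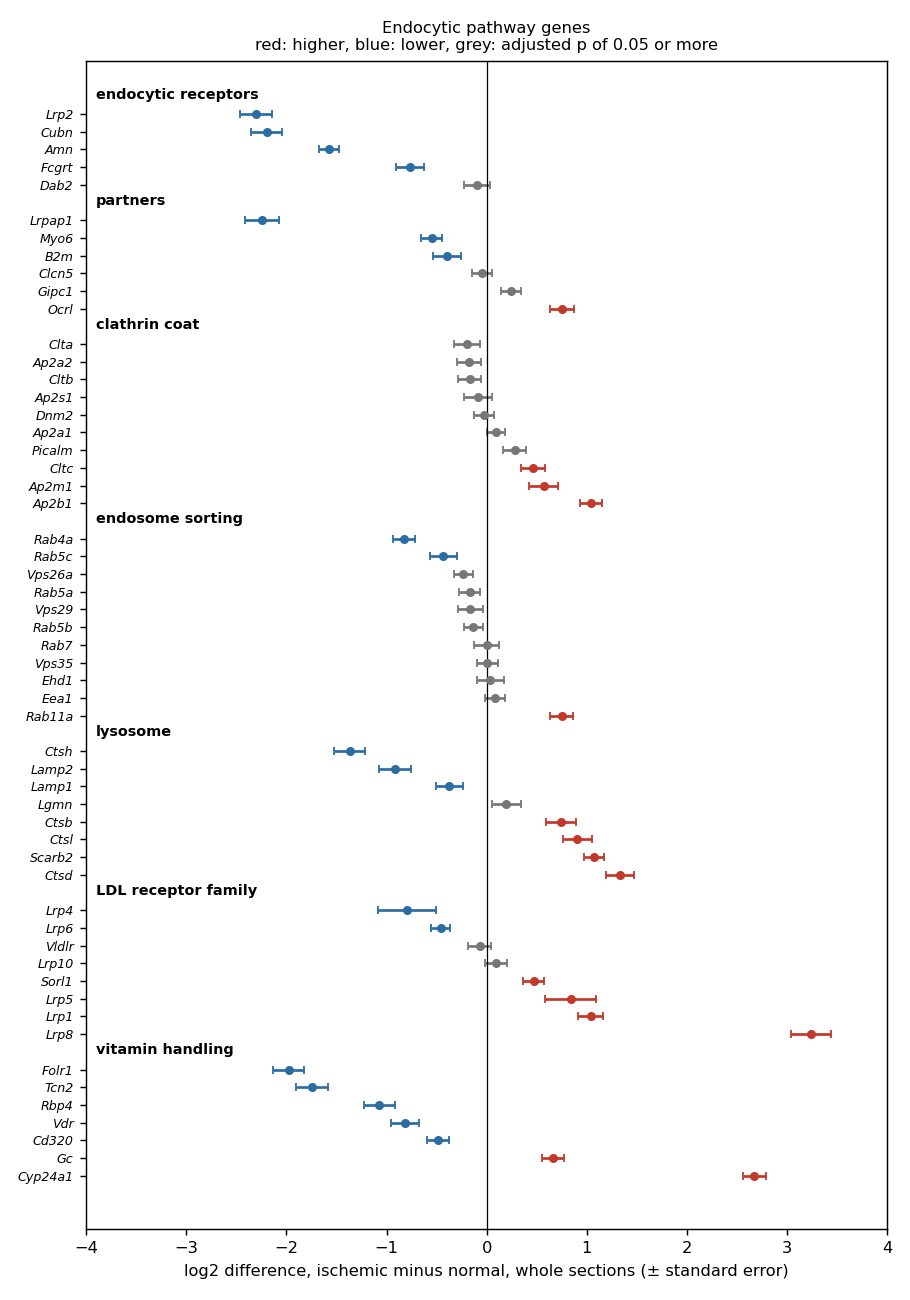
Log2 difference, ischemic minus normal, in whole sections for the 5 endocytic receptor genes and 6 lists of genes of the same pathway, with bars for the standard error and colour for the test. Lrp2, Cubn and Lrpap1 lie between -2.31 and -2.20, while most coat and endosome genes lie near 0.

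The genes whose pattern was most like each member's were found over 20 section and zone profiles by Pearson's r of log2(CPM + 1), which share sections and depth and are given without a test. They were Grtp1, Smlr1 and Aldh8a1 for Lrp2 (r from 0.989 to 0.996), Ces1f, Pdzk1 and Hgd for Cubn (0.982 to 0.988) and Ces1f, Aadac and Nat8 for Amn (0.984 to 0.985). For Fcgrt they were Etfb, Retsat and Hadh (0.983 to 0.988). Dab2 stood nearest to Slc13a1 (0.983) and Slc2a2 (0.973). Their whole-section log2 differences were 0.04 and 0.05, but both conditions entered r, so these values follow in part from the choice of genes. Among the members, r was 0.972 to 0.976 between Lrp2, Cubn and Amn and 0.683 to 0.779 between Dab2 and the others.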

How the data were processed

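UMI counts per gene and spot were measured in 4 Visium sections. Per the file headers, the authors ran Space Ranger 1.3.0, and per the labels the build was mm10. The deposited values are raw counts without normalization. Here counts were summed over tissue spots per section, and per section and zone (at least 20 spots), and scaled to CPM with TMM factors. Conditions were compared with edgeR 4.0.16 (filterByExpr, quasi-likelihood test, Benjamini-Hochberg over all genes tested, threshold 0.05) in R 4.3.3, with 1 model over all zone groups, and zones within condition with the section as a block. Zones came from marker lists: CPM of each spot, pooled with at most 6 adjoining spots, log-transformed, averaged over genes, standardised within the section, with the highest score taken. The lists were Slc12a3, Slc22a6, Slc22a8, Slc34a1, Slc5a12 and Slc5a2 (cortex), Atp11a, Cyp7b1, Serpina1f, Slc22a13 and Slc7a13 (outer stripe), Cldn10, Ptger3, Slc12a1 and Umod (inner stripe), Akr1b3, Aqp2, Cryab, Fxyd4 and Slc14a2 (inner medulla) and Krt5, Psca and 4 uroplakins (pelvis). Pelvis needed at least 10 marker counts and the top 5% of the section. Coordinates are those of GENCODE for GRCm38, and promoters those of RefSeq for GRCm38.p6. DESeq2 1.42.0 and other scalings, filters and zone rules were alternatives. Fits were tested on simulated data.

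Depth was 44528078 and 27657481 UMIs in the normal and 31053530 and 25957128 UMIs in the ischemic sections, and 95% intervals on shares of spots cover counting error only, while that on a log2 difference comes from the edgeR standard error. Replicate sections were not duplicates of one library, since their counts differed by a chi-square of 42.8 (normal) and 7.35 (ischemic) per degree of freedom. The sections shared 1833 to 2137 spot barcodes in pairs, which are array positions common to all slides and not shared cells. The genes and lists were chosen with earlier results of these data known. Named genes were the 5 receptors, Havcr1 and Lcn2, in each list up to 3 rises and 3 falls of largest size among called genes whose sections did not overlap, and for each receptor the 3 genes of highest r with a mean of at least 20 CPM. A few genes that these lists or this rule would hold are not reported here, and the counts of the lists leave them out.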

Additional observations from a re-analysis of the deposited data

Results flagged for a closer look

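All 5 endocytic receptor genes were flagged because their ischemic effect differed between the outer stripe and the cortex by a test of that difference, given as the log2 change in the ratio of outer stripe to cortex from normal to ischemic sections. Cubn had a change of -1.15 (SE 0.29, edgeR adjusted p = 0.00769), from ratios of 0.46 and 0.44 in normal to -0.78 and -0.62 in ischemic sections. Fcgrt had -1.03 (SE 0.14, adjusted p = 3.10e-05), Amn -0.82 (SE 0.19, adjusted p = 0.00430), Lrp2 -0.79 (SE 0.25, adjusted p = 0.0277) and Dab2 -0.45 (SE 0.13, adjusted p = 0.0176). In all 5 the ischemic sections had the lower ratio in 2 of 2 sections, beside 13.5% of genes with a called change of this sign. The summed proximal tubule markers also stood lower in the outer stripe relative to the cortex after ischemia. How far the makeup of the zones entered these changes was not tested. Without ischemic section 1 the adjusted p was 0.187 for Cubn, 0.228 for Amn, 0.333 for Lrp2 and 0.321 for Dab2, and without ischemic section 2 it was 0.117, 0.0956, 0.186 and 0.269.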

How the results depend on the processing

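The whole-section calls of Lrp2, Cubn, Amn and Fcgrt held under every alternative run, with adjusted p of at most 4.44e-05, 3.80e-06, 7.36e-06 and 0.0245, and so did their outer stripe calls (at most 0.00313, 0.00887, 0.00186 and 0.0185) and the cortex call of Lrp2 (at most 0.0323). With total counts in place of TMM, Dab2 turned to 0.18 in whole sections and 0.18 in the outer stripe and was called at 0.45 in the cortex, Fcgrt in the cortex turned to 0.017, the normal difference of outer stripe from cortex turned to -0.11 for Amn and -0.15 for Fcgrt, and the change with ischemia was no longer called for Lrp2 (-0.61) and Dab2 (-0.27). That normal difference, near 0, also turned for Fcgrt with DESeq2 (-0.013), DESeq2 size factors (-0.012), no filter (-0.044) and without spots near a boundary (-0.0051), and for Amn with no filter (-0.0028). The change with ischemia lost its call with DESeq2 for Lrp2 (-0.74), Cubn (-1.09) and Amn (-0.76), with no filter for Dab2 (-0.33), without spots near a boundary for Lrp2 (-0.73) and Dab2 (-0.38), with zones scored without neighbours for Dab2 (-0.33) and with no section block for Lrp2 (-0.78), Cubn (-1.14), Amn (-0.82) and Dab2 (-0.45). Zones without neighbours also turned Dab2 in the pelvis to -0.43 and gave 2248 called genes there. With no section block, 2134 genes were called between outer stripe and cortex in normal kidneys against 3236, and 1665 for the change with ischemia against 3049. Each zone fitted alone gave 3077 called genes in the inner medulla against 4978. The causes of these shifts were not tested.

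The correlation of deviations between sections of the same number was 0.162 over genes. With 2 sections in a group, both pairs give this same value by construction, so it cannot show whether section numbers pair the sections. With a replicate block, the change with ischemia was not called for Lrp2 (-0.78), Cubn (-1.14) and Dab2 (-0.45), the ischemic difference of outer stripe from cortex was not called for Cubn (-0.69), nor the normal difference of inner stripe from cortex for Cubn (-0.66) and Fcgrt (-0.29), and no whole-section, cortex or outer stripe call of a member changed.

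Leaving out each section in turn gave ranges of called genes of 6493 to 10877 in whole sections, 2508 to 7090 in cortex, 5491 to 8742 in the outer stripe, 4220 to 7511 in the inner stripe, 2549 to 4598 in the inner medulla, 1099 to 3735 in the pelvis, 2150 to 3574, 1630 to 6611 and 740 to 3848 for outer stripe against cortex in normal, in ischemic and in the change, and 3783 to 8053 for inner stripe against ischemic cortex. The lone section of a group was then assumed to vary like the other group. Member values ran from -0.26 to 0.057 for Dab2 in whole sections, 0.13 to 0.26 in cortex and -0.29 to -0.21 in the outer stripe. In the cortex they ran from -1.58 to -1.39 for Cubn, -1.12 to -0.96 for Amn and -0.31 to -0.14 for Fcgrt. The change with ischemia ran from -0.89 to -0.70 for Lrp2, -1.22 to -1.07 for Cubn, -0.93 to -0.70 for Amn and -0.52 to -0.41 for Dab2. The normal difference of outer stripe from cortex ran from -0.048 to 0.13 for Amn and -0.10 to 0.10 for Fcgrt. Depth limits the inner medulla and pelvis, where Cubn had 8 to 26 counts in ischemic sections.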

Other observations

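Within the ischemic sections, spots were divided into quartiles by the Havcr1 level of the spot and its neighbours. CPM of the summed counts of each quartile, here without TMM scaling, is given as a description. In the outer stripe, Lrp2 was lowest where Havcr1 was lowest, at 76.0 and 59.2 CPM in the lowest quartile of sections 1 and 2 against 129 and 155 CPM in the highest. Cubn went the same way, from 21.8 and 25.1 CPM to 54.3 and 67.0 CPM. Amn had 20.4 and 31.7 CPM in the lowest and 31.3 and 39.2 CPM in the highest quartile, but in section 2 its lowest value, 29.1 CPM, was in the second quartile. In the cortex Lrp2 was 237 and 244 CPM in the lowest and 236 and 243 CPM in the highest quartile. Fcgrt in the cortex was 149 and 168 CPM in the lowest and 116 and 129 CPM in the highest quartile. Dab2 in the cortex was 267 and 264 against 227 and 231 CPM. In the outer stripe Dab2 was highest in the second quartile of section 1 (129 CPM) and the third of section 2 (118 CPM). Fcgrt there was highest in the second quartile, at 84.2 and 94.7 CPM. The lowest outer stripe quartile held the fewest UMIs, 2105587 and 1671466. Proximal tubule markers were not summed by quartile, and how far the makeup of the spots entered these values was not tested. Quartiles of a section share its library, and neighbouring spots share tissue, so no test was made.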
